A study of Mus musculus with 6 samples.

Results

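The clustered replication-dependent histone genes of the mouse were chosen by name, as the genes whose symbol in GENCODE M21 opens with Hist1h, Hist2h, Hist3h or Hist4h. The annotation lists 70 of them, and 67 of the 41126 genes in the all-gene table are members. They comprise 6 linker histone genes (class H1), 20 H2A genes, 16 H2B genes, 12 H3 genes and 13 H4 genes. Hist1h2aj, Hist1h2al and Hist3h2bb-ps among them are annotated as pseudogenes. Hist1h2bh, Hist1h2bm and Hist2h2bb were not analysed here.

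RNA-seq was performed on 3 control and 3 GOF cultures of ventral dermal fibroblasts, the collagen-producing cells of the skin, from mouse pups of mixed CD1 and C57Bl6 background at postnatal day 4. GOF cultures carried one Ctnnb1 allele with a floxed exon 3, received Adenovirus-Cre and so made β-catenin that cannot be marked for degradation (Ctnnb1 Δex3/+). Control cultures received Adenovirus-GFP, and the paper gives them the same floxed allele, whereas the labels give a genotype of +/+. Virus and β-catenin state therefore cannot be told apart. All cultures grew in DMEM with 10% fetal bovine serum and were infected, after passaging, in serum-free medium for 6 h. The 6 h are the length of infection, and the paper places RNA collection days after it. The treatment label gives 366 to 500 MOI of Adenovirus-Cre and makes no exception for controls. Control replicate 0 and GOF replicate 2 came from 1 animal, Control replicate 2 and GOF replicate 0 from another, and the remaining cultures from an animal each. Values given below in threes are in the order of replicates 0, 1 and 2.

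Histones are the proteins around which DNA is wound, with H2A, H2B, H3 and H4 forming the nucleosome core and H1 binding the linker DNA between nucleosomes. The clustered genes are copied mainly in S phase, when new DNA must be packed, and their mRNAs are unusual in that they normally end in a conserved stem-loop instead of a poly(A) tail. The stem-loop is bound by SLBP, which is needed for cutting of the 3′ end, for export and for translation. Whether these libraries were made by poly(A) selection or by removal of ribosomal RNA is not given in the sources used here.

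The stem-loop was searched for within 200 bases after each annotated stop codon, as a stem of 6 base pairs around a loop of 4 bases. It was found in 65 of the 67 protein-coding members of the annotation and in 79 of 21752 protein-coding genes in all (0.363%). Hist1h2an and Hist2h2be held none in this window. The sequences below are from GRCm38, written 5′ to 3′ with the stem and loop in capitals. They show that genes called lower and genes not called can share the same stem-loop.
Hist1h1e, called lower: caaaGGCTCTTTTCAGAGCCaccca
Hist1h1c, not called: aaaaGGCTCTTTTCAGAGCCaccac
Hist1h2bn, called lower: caaaGGCTCTTTTCAGAGCCaccca
Hist1h2bc, not called: caaaGGCTCTTTTCAGAGCCaccca
Hist1h4d, called lower: caaaGGCCCTTTTCAGGGCCactac
Hist2h4, called lower: taacGGCCCTTTTTAGGGCCaacca
Hist1h4i, not called: taaaGGCCCTTTTTAGGGCCaccac
The 25 bases printed for Hist1h1e, Hist1h2bn and Hist1h2bc are the same. Among tested members, 28 carried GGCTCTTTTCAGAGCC, spread over H1, H2A, H2B and H3, and 20 of these were called lower. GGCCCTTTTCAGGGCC was found in 8 H4 genes, and 8 of them were called lower. Hist2h4 and Hist1h4i were the 2 tested genes with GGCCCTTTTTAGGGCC, and 1 of them was called lower.

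Libraries held 35980831 to 42834467 estimated fragments. Ctnnb1 as a whole gene lay at 254 to 285 FPKM in control and 246 to 297 FPKM in GOF, a level that does not show the loss of exon 3. Axin2, a target of β-catenin used here as the check of the labels, lay at 0.144, 0.136 and 0.177 FPKM in control and at 19.2, 14.4 and 18.7 FPKM in GOF. The fibroblast markers Col1a1, Col1a2, Vim and Thy1 were above 100 FPKM in every library, and of the 11 fibroblast markers Col1a2, Dcn and Fn1 were called lower. The 5 keratinocyte markers summed to 0.359 to 0.487 FPKM. Endothelial markers summed to 2.79 to 3.40 FPKM in control and 2.36 to 4.17 FPKM in GOF, and macrophage markers to 2.40 to 3.33 and 4.33 to 7.54 FPKM. Within these lists Kdr and Csf1r were called higher and Tek was called lower. The skeletal muscle markers summed to 0.648 to 1.29 FPKM and the melanocyte markers to 2.27 to 6.12 FPKM over all libraries. Myod1, Krt14 and Pax7 were at 0 FPKM in every control library.

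Most of the expressed clustered histone genes fell in GOF. A small group, with at least 1 gene in every class, was not called and had a log2 fold change above -1. A member was called when it differed more than 2-fold and its adjusted p in edgeR's quasi-likelihood test was under 0.05. Of 53 members that passed the filter on low counts, 42 were called lower (79.2%), where 5.64% of all 15462 tested genes were called lower. No member was called higher by edgeR, DESeq2 or limma on log2(FPKM + 1), where 6.69% of all tested genes were called higher by edgeR, and 1 member had a higher level at an unadjusted p under 0.05. The log2 fold changes of the 42 ran from -1.37 (Hist2h4) to -4.31 (Hist1h4k), apart from Hist1h2af, which was close to 0 fragments in GOF. Every GOF library lay below every control library in FPKM for 44 of the 53 members (83.0%), where the background is 19.2%. The median log2 fold change was -2.46 over the tested members and -0.02 over all genes tested. In these bulk samples, fewer cells in S phase and less histone RNA per cell cannot be told apart. The count depended on GOF replicate 0 and GOF replicate 1, with 13 members called lower without the first and 23 without the second. Calls over all genes shrank too, from 872 lower to 569 when the first was dropped and to 703 when the second was. In proportion this was a smaller loss than among the members. The counts by class given below for these settings should be read beside this general loss. The fitted log2 fold change was below -1 for 45 members with all libraries, for 45 without GOF replicate 0 and for 44 without GOF replicate 1.

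**Figure D1:**
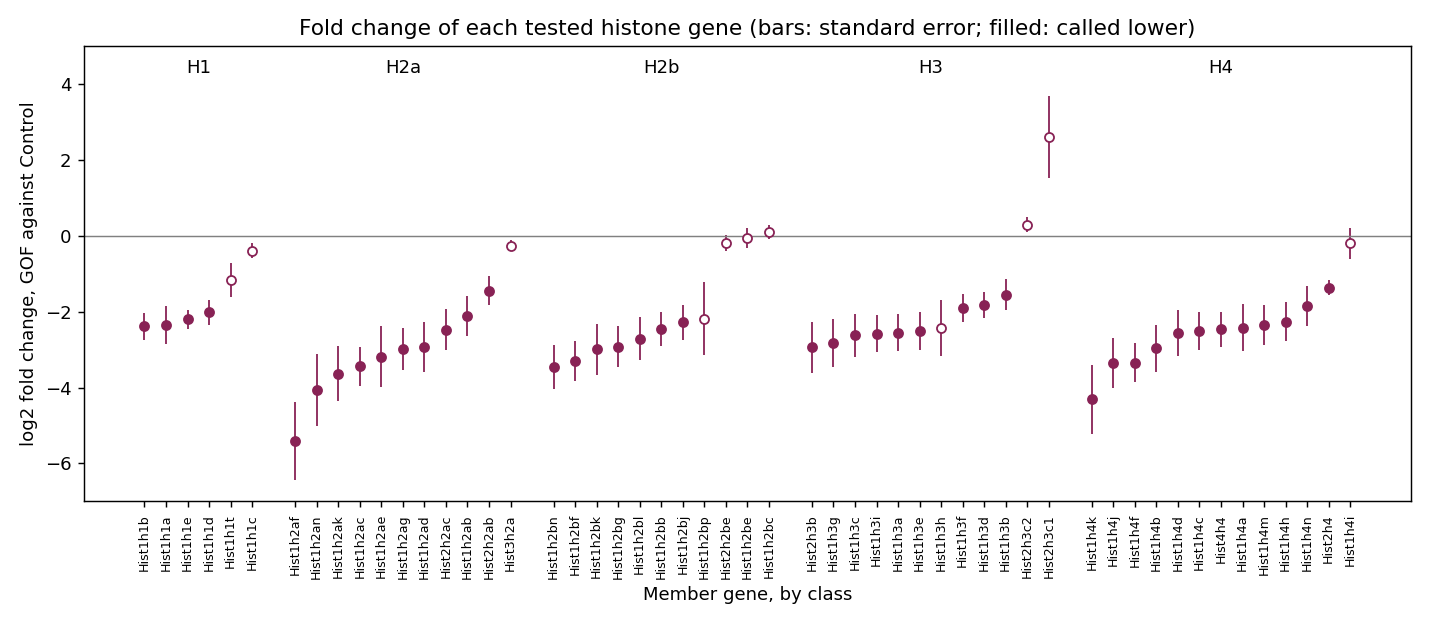
Fold change of each tested member. The vertical axis gives the log2 fold change of GOF against control from edgeR, the horizontal axis the member genes by class, bars the standard error, and filled points the 42 members called lower. All 5 classes have filled points between -1.37 and -5.41 as fitted and open points near 0.

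The control libraries differed among themselves. Control replicate 0 held the highest level of all 42 members called lower, and for these genes the highest control value was 2.96 times the lowest in the median, with a range from 1.27 to 5.0. Among GOF libraries, GOF replicate 2, from the same animal as Control replicate 0, was the highest for 36 of the 42. Within that animal, 50 of 53 tested members were lower in GOF, with a median log2 ratio of -2.79 over the 42. Within the other animal that gave both cultures, 49 of 53 were lower, with a median of -1.89. The 42 were called from comparisons that include these libraries, so the sign of both medians follows from the selection. Matching shares over all tested genes were not computed for the within-animal counts or for the highest library. Without Control replicate 0 the median log2 fold change of all tested members was -1.81, and 38 were called lower.

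RNAs outside the histone family that have a form without a poly(A) tail were listed for comparison. The FPKM of a gene does not separate such forms. Of these, Rpph1, Rmrp, Terc, Rny1 and Vaultrc5 were highest in Control replicate 0 among control libraries. Rnu11, Rnu12, Scarna2 and Scarna13 were highest there as well, while Neat1 was lowest there. Rpph1, the RNA of RNase P, lay at 62092, 15923 and 9649 FPKM in control and at 8947, 4197 and 10165 FPKM in GOF. Rmrp, the RNA of RNase MRP, lay at 36759, 19000.4 and 10828 FPKM in control and at 7652, 4199.5 and 17512 FPKM in GOF. Groups overlapped for both. Terc, the telomerase RNA, lay at 10.1, 4.22 and 4.49 FPKM and then at 2.60, 3.58 and 4.83 FPKM, again with overlap. Neat1 lay at 18.1 FPKM in Control replicate 0 against 39.6 and 47.7 FPKM, and lay at 38.1, 25.2 and 27.7 FPKM in GOF. Of the 9 RNAs of this list that passed the filter, none was called by edgeR, DESeq2 or limma, and 1 was lower at an unadjusted p under 0.05. By both thresholds edgeR called 5.64% of all tested genes lower and 6.69% higher. The share of all genes past the unadjusted threshold was not computed. Over the 14 with values, the FPKM summed to 22056 to 101747 in control and 9927 to 29451 in GOF. Values of very short RNAs in FPKM depend strongly on the length used, and the part of RNA selection in the histone values was not tested.

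The summed level showed the classes falling by different amounts. FPKM, the fragments of a gene scaled by its length and by library size, is used for comparing genes. Summed over the H4 genes it was 1515, 743 and 445 in control and 178, 162 and 255 in GOF, a mean ratio of control over GOF of 4.55. For the H3 genes it was 275, 155 and 108 and then 40.4, 41.3 and 57.1, with a ratio of 3.87. The H2A genes gave 211, 103 and 83.2 and then 28.6, 26.7 and 37.7, with a ratio of 4.28. In these classes the lowest control library lay above the highest GOF library. The H1 genes gave 725, 435 and 422 and then 241, 315 and 230.2, again with no overlap, and their ratio was 2.01. The H2B sums were 608, 392 and 293 in control and 234, 253 and 295 in GOF, so Control replicate 2 and GOF replicate 2 met, and the ratio was 1.65. In fragments scaled by library size alone, without length, the ratios were 4.15 for H4, 3.51 for H3, 2.10 for H2A, 1.76 for H1 and 1.28 for H2B. Median log2 fold changes over tested members were closer together, at -2.47 for H4, -2.47 for H3, -2.99 for H2A, -2.11 for H1 and -2.46 for H2B. The sums of H1 and H2B thus rest on a few abundant members that did not fall, as described by class below. In fragments the same held for H2A, through Hist3h2a, which was not called. Scaled by library size, the H2A genes called lower gave a mean of 31.5 of 62.0 in control and 4.81 of 29.6 in GOF. Before scaling, Hist3h2a had 1132, 1338 and 1031 fragments in control and 941, 1039 and 1062 in GOF. The H2A ratio thus depended on the scaling by length, at 4.28 with it and 2.10 without. The difference between classes was not tested.

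**Figure D2:**
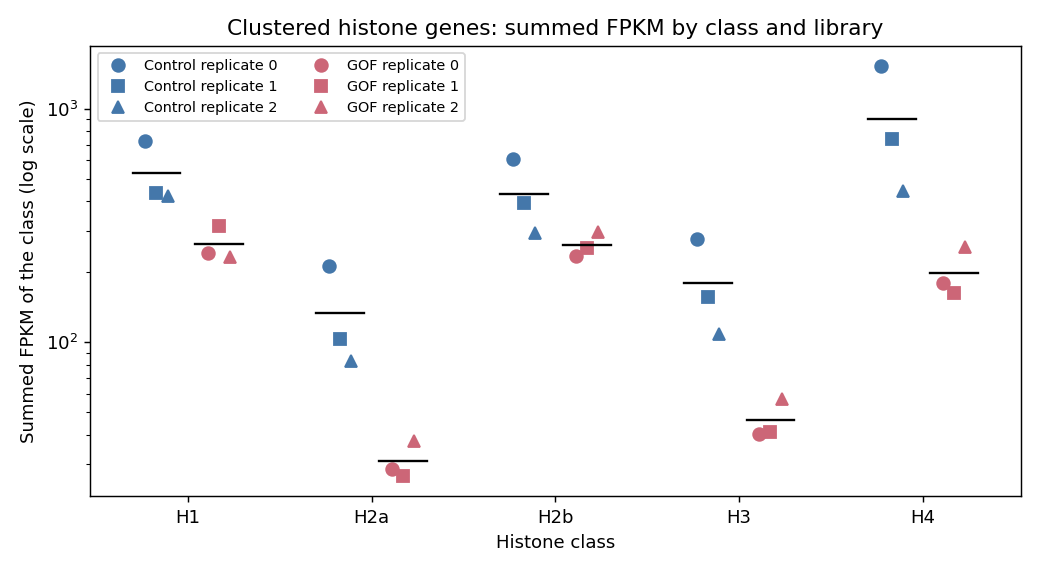
Summed FPKM of each histone class in each library. The horizontal axis gives the class and the vertical axis the summed FPKM on a log scale, with symbols for replicates 0, 1 and 2 and black lines for group means. The groups separate in H1, H2A, H3 and H4, whereas the H2B sums meet at 293 FPKM in Control replicate 2 and 295 FPKM in GOF replicate 2.

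The linker histone genes split by member. H1 proteins bind where DNA enters and leaves the nucleosome and help to compact chromatin. Hist1h1e (H1.4) had 139.6, 82.7 and 87.8 FPKM in control and 21.3, 28.3 and 21.8 FPKM in GOF, a log2 fold change of -2.20 (SE 0.25, adjusted p = 0.00137 by edgeR), the smallest adjusted p among the members. Its gene lies at chr13:23620629-23622558 on the minus strand and overlaps Hist1h2be and Gm11398 in the annotation, so fragments of these genes may be shared. Hist1h1d (H1.3) went from 144, 77.6 and 63.9 FPKM to 22.4, 25.8 and 26.2 FPKM, or -2.02 on the log2 scale (SE 0.33, adjusted p = 0.00584). Every GOF value of both genes was under every control value, and the GOF values lay closer together than the control values.

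Hist1h1b (H1.5) had 68.6, 28.1 and 33.8 FPKM in control and 8.06, 9.46 and 8.54 FPKM in GOF, and its log2 fold change was -2.39 (SE 0.35, adjusted p = 0.00376). Hist1h1a (H1.1) went from 66.7, 22.1 and 22.3 FPKM to 6.01, 10.2 and 6.39 FPKM, with -2.36 (SE 0.50, adjusted p = 0.0146). Both were highest in Control replicate 0 and did not overlap between groups. Without GOF replicate 0, Hist1h1a was no longer called.

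Hist1h1c (H1.2), at chr13:23738808-23740367 on the plus strand, was the most abundant linker gene in every library. It held 305, 223 and 213 FPKM in control and 182, 241 and 167 FPKM in GOF, and the groups overlapped through GOF replicate 1. Its log2 fold change was -0.39 (SE 0.20, adjusted p = 0.218), and it was called in none of the 15 alternatives. Its share of the summed H1 FPKM was 42.1%, 51.4% and 50.6% in control and 75.8%, 76.5% and 72.5% in GOF. Hist1h1t, the testis linker histone, was near the limit of detection, at 1.10, 0.722 and 0.580 FPKM and then 0.301, 0.273 and 0.538 FPKM, and was not called (-1.16, adjusted p = 0.108).

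**Figure D3:**
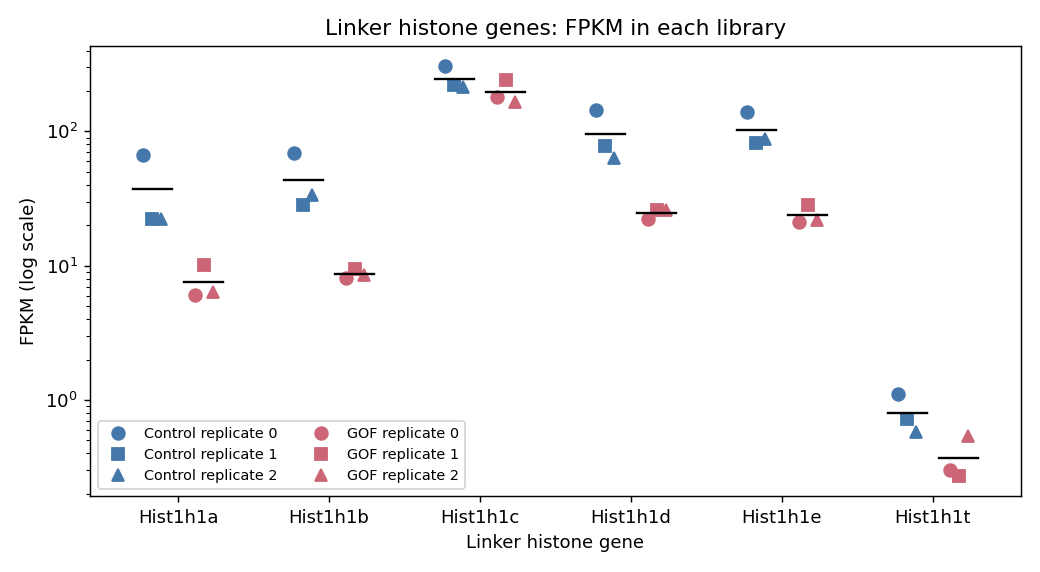
Linker histone genes in each library. The horizontal axis gives the 6 H1 genes and the vertical axis FPKM on a log scale, with symbols for replicates and black lines for group means. Hist1h1c stays between 167 and 305 FPKM in all 6 libraries, while Hist1h1a, Hist1h1b, Hist1h1d and Hist1h1e show separate groups.

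The promoters of Hist1h1e and Hist1h1c, which differed in response, are shown here because both hold the H1 box AAACACA and a CCAAT box. The stretches, taken from RefSeq promoters on GRCm38.p6, end 10 bases before the annotated start, and capitals mark the motifs searched on both strands.
Hist1h1e, chr13:23622569-23622688, minus strand: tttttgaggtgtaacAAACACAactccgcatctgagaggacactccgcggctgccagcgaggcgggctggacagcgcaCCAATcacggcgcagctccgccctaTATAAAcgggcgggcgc
Hist1h1c, chr13:23738677-23738796, plus strand: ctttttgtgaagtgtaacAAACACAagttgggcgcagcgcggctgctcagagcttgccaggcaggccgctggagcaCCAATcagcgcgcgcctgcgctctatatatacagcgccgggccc
AAACACA was found in 5 of the 6 H1 promoters and in 8.22% of 27025 promoters of all genes. CCAAT was found in all H1, H2A, H2B and H3 promoters of the 62 members matched by gene ID, in 3 of 12 H4 promoters, and in 41.1% of all. The octamer ATTTGCAT was found in 7 of 18 H2A and 7 of 16 H2B promoters, against 1.97% of all, and TATAAA in 56.5% of members against 15.7% of all. The motif GGTCCG, the H4 subtype-specific element, was found in 11 of 12 H4 promoters and 9.44% of all, among them those of Hist1h4d, which fell, and Hist1h4i, which was not called:
Hist1h4d, chr13:23581438-23581557, plus strand: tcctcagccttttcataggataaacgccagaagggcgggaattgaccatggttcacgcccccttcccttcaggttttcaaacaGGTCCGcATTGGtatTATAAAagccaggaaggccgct
Hist1h4i, chr13:22041373-22041492, minus strand: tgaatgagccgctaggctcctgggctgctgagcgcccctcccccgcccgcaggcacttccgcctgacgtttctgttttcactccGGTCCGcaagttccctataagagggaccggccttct
These matches are descriptions of the letters in the window.

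H2A pairs with H2B in the nucleosome core. Of 11 H2A genes tested, 10 were called lower, and log2 fold changes ran from -4.07 to -0.26, apart from Hist1h2af. Without GOF replicate 0, 3 were called lower, and without GOF replicate 1, 5. Hist1h2ac had 30.3, 13.2 and 11.1 FPKM in control and 2.0, 1.51 and 1.86 FPKM in GOF, a log2 fold change of -3.44 (SE 0.52, adjusted p = 0.00402). Hist1h2ag went from 10.6, 5.02 and 4.42 FPKM to 0.695, 0.694 and 1.20 FPKM, or -2.99 (SE 0.55, adjusted p = 0.00901). The GOF values of both genes lay close together while the control values spread over more than 2-fold.

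The more abundant Hist2h2ac had 52.6, 18.5 and 17.4 FPKM in control and 4.49, 5.15 and 7.18 FPKM in GOF (-2.48, SE 0.54, adjusted p = 0.0170). Hist1h2ab went from 42.8, 19.9 and 17.9 FPKM to 6.87, 3.81 and 8.59 FPKM (-2.12, SE 0.52, adjusted p = 0.0261). Both lost the call without GOF replicate 0 and without GOF replicate 1. Hist1h2af, with 53, 29 and 12 fragments in control and 0, 0 and 2 in GOF, was at least 11.4-fold lower against a floor of 3 fragments in each library.

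Hist3h2a, the H2A gene of the small cluster on chromosome 11, was the exception in its class. It had 15.6, 16.7 and 12.4 FPKM in control and 11.3, 12.8 and 13.2 FPKM in GOF, with overlapping groups and a log2 fold change of -0.26 (SE 0.15, adjusted p = 0.268). It made up 7.39%, 16.2% and 15.0% of the summed H2A FPKM in control and 39.6%, 47.8% and 35.1% in GOF. Its part of the H2A fragments, without scaling by length, was larger in both groups. The annotation places Trim17 and Gm44313 over it, which may share fragments.

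Among 11 H2B genes tested, 7 were called lower, with 3 called without GOF replicate 0 and 5 without GOF replicate 1. Hist1h2bn went from 66.4, 24.7 and 22.6 FPKM to 3.33, 2.05 and 5.33 FPKM (-3.45, SE 0.58, adjusted p = 0.00636). Hist1h2bf had 39.5, 23.8 and 16.3 FPKM in control and 2.36, 1.49 and 4.36 FPKM in GOF (-3.30, SE 0.53, adjusted p = 0.00532). Hist1h2bb went from 60.3, 39.9 and 20.3 FPKM to 7.89, 5.66 and 9.31 FPKM (-2.46, SE 0.45, adjusted p = 0.00842). None of the 3 overlapped between groups.

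Hist1h2bc, the most abundant H2B gene, at chr13:23684199-23692908 on the plus strand, did not follow them. It had 219, 199.6 and 149 FPKM in control and 188, 215 and 227 FPKM in GOF, with overlapping groups and a log2 fold change of 0.10 (SE 0.19, adjusted p = 0.754). Its share of the summed H2B FPKM was 36.0%, 51.0% and 50.8% in control and 80.0%, 84.8% and 77.2% in GOF. Hist1h2be had 22.9, 13.5 and 11.5 FPKM and then 13.3, 13.8 and 19 FPKM (-0.06, SE 0.27, adjusted p = 0.907), and Hist2h2be lay between 1.09 and 1.78 FPKM in all libraries (-0.19, SE 0.21, adjusted p = 0.563). Hist1h2bp was not called, and its libraries scattered, with 185, 20 and 86 fragments in control and 23, 3 and 44 in GOF (-2.19, SE 0.96, adjusted p = 0.151). With cultures blocked by animal it was called lower, at -2.12 on the log2 scale.

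**Figure D4:**
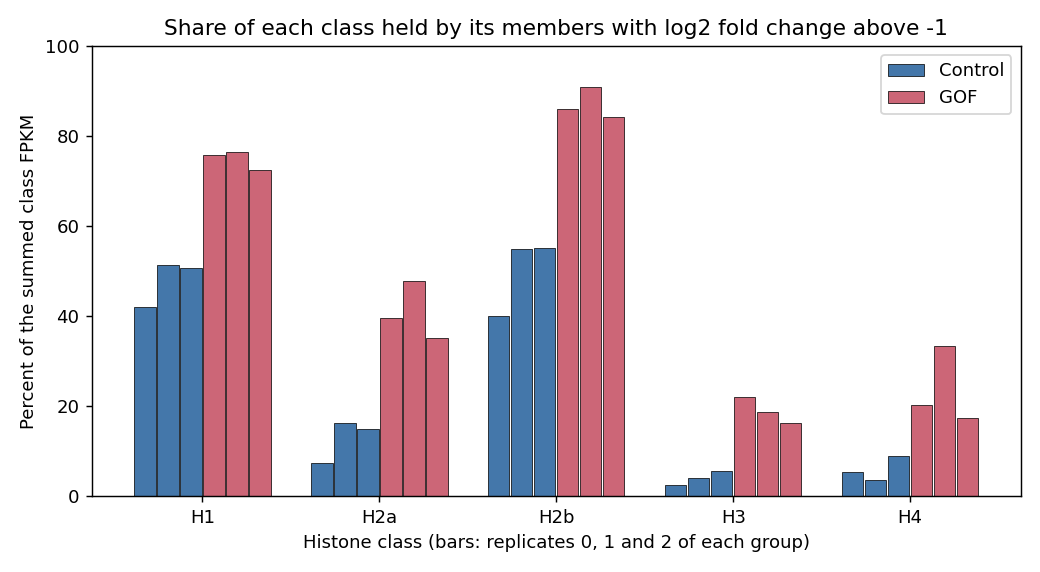
Share of each class held by the members that were not called and whose log2 fold change was above -1, chosen from these values and shown as a description. The vertical axis gives the percent of the summed class FPKM, with a bar for each of replicates 0, 1 and 2 of control and GOF. In H2B the share is 40% to 55.2% in control and 84.2% to 90.9% in GOF, and in H3 it is 2.42% to 5.59% and 16.2% to 22.1%.

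H3 and H4 form the tetramer at the centre of the nucleosome. Of 12 H3 genes tested, 9 were called lower, although 1 was called without GOF replicate 0 and 4 without GOF replicate 1. Hist1h3i went from 48.6, 26.3 and 21.7 FPKM to 4.59, 4.74 and 7.64 FPKM (-2.58, SE 0.48, adjusted p = 0.00908). Hist1h3e went from 48.0, 17.5 and 16.5 FPKM to 4.29, 4.20 and 6.49 FPKM (-2.5, SE 0.50, adjusted p = 0.012). Groups did not overlap for either gene. Hist1h3b and Hist1h3d fell less, at -1.55 (SE 0.41, adjusted p = 0.0340) and -1.83 (SE 0.35, adjusted p = 0.0103), and Hist1h3b kept its call in 10 of 15 alternatives. Hist1h3h fell short of the threshold with a log2 fold change of -2.44 (SE 0.74, adjusted p = 0.0526) and was called lower in 9 of 15 alternatives, among them the block by animal (-2.45).

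Hist2h3c2 and Hist2h3c1, the H3 genes with a fitted log2 fold change above 0, sit in the Hist2 cluster on chromosome 3. Hist2h3c2 had 6.63, 5.70 and 6.00 FPKM in control and 8.41, 7.31 and 7.29 FPKM in GOF (0.29, SE 0.20, adjusted p = 0.342), and each GOF library was above each control library. Its coding sequence is 99.75% identical to that of Hist2h3b, which was called lower (-2.94, SE 0.67, adjusted p = 0.0201), so the split of fragments between these genes is uncertain. Hist2h3c1 had 0, 22.1 and 1.82 fragments in control and 27.7, 20.7 and 101 in GOF, as estimated by Cuffdiff. Its log2 fold change was 2.60 (SE 1.07, adjusted p = 0.129), the groups overlapped, and it overlaps Gm20634. It was called higher without Control replicate 1, and with cultures blocked by animal.

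The 13 H4 members of the table encode the same protein of 103 residues, and 12 of them were called lower, with 3 called without GOF replicate 0 and 5 without GOF replicate 1. Hist1h4d had the highest mean of the class in control, although Hist1h4c was above it in Control replicate 2. Hist1h4d held 417, 229.6 and 91.1 FPKM in control and 39.9, 29.4 and 62.4 FPKM in GOF (-2.57, SE 0.61, adjusted p = 0.0231). Hist1h4c went from 325, 130.3 and 114 FPKM to 32.2, 25.8 and 46.9 FPKM (-2.51, SE 0.51, adjusted p = 0.0124), and Hist1h4h from 227, 124 and 63.8 FPKM to 29.3, 22.0 and 39.6 FPKM (-2.26, SE 0.52, adjusted p = 0.0206). These 3 spread up to 4.58-fold within control and lost the call without GOF replicate 0 and without GOF replicate 1.

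Hist1h4f and Hist2h4 kept the call in all 15 alternatives. Hist1h4f went from 108, 68.7 and 33.0 FPKM to 7.09, 5.33 and 9.37 FPKM (-3.34, SE 0.52, adjusted p = 0.00459). Hist2h4, on chromosome 3, had 8.97, 6.48 and 6.18 FPKM in control and 3.07, 2.56 and 2.82 FPKM in GOF, a smaller fall of -1.37 (SE 0.20, adjusted p = 0.00343) with little spread.

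Hist1h4i was the H4 gene that was not called. It had 80.5, 27.6 and 39.5 FPKM in control and 35.9, 53.8 and 44.4 FPKM in GOF, with GOF within the range of control (-0.20, SE 0.40, adjusted p = 0.757). It held 5.32%, 3.71% and 8.88% of the summed H4 FPKM in control and 20.2%, 33.3% and 17.4% in GOF.

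By cluster, Hist1 on chromosome 13 takes in 56 of the 70 annotated members by name. Of these, 55 lie between positions 21715763 and 23934851, and the pseudogene Hist1h2al lies apart. Of the 44 tested Hist1 members, 37 were called lower, with a median log2 fold change of -2.5. Hist2, at chr3:96219865-96270132, had 4 of 7 called lower and a median of -1.37. The single Hist4 gene on chromosome 6, Hist4h4, went from 19, 9.27 and 6.02 FPKM to 1.67, 1.66 and 2.94 FPKM (-2.47, SE 0.45, adjusted p = 0.00877), whereas the single tested Hist3 gene, Hist3h2a, was not called. Called and uncalled genes therefore lay side by side in the Hist1 and Hist2 clusters. The difference between clusters was not tested.

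The 8 members that were not called and had a log2 fold change above -1 are Hist2h3c1, at 2.60, and 7 members between -0.39 and 0.29. As a group they differed from most members that fell in the length behind FPKM and in annotated ends. The length behind each FPKM, taken as the fragments divided by FPKM and library total, had a median of 0.265 kb over the 42 called lower and 1.25 kb over the 8. It was over 1 kb in 2 of the 42, Hist2h4 and Hist4h4, and in 5 of the 8, Hist2h3c1 among them. Hist1h1d, Hist1h1e, Hist1h2ac, Hist1h3d, Hist1h3f and Hist1h4d were also called lower and have transcripts over 1 kb in GENCODE M21. Their lengths behind FPKM were 0.232 to 0.594 kb, so these lengths need not match the GENCODE M21 models used for ends and introns. A poly(A) signal, AATAAA or ATTAAA in the last 40 bases of an annotated transcript on its own strand, was found in 6 of the 42 and 6 of the 8, Hist2h3c1 again included, against 79.1% of 21938 protein-coding genes. None of the 42 had an annotated intron, against 2 of the 8. Of the 3 members that were not called but lay below -1, 2 had a poly(A) signal, 1 had an intron and 0 had a length over 1 kb. These groups were set by the fold changes themselves, so the contrast is a description. Hist1h2bc and Hist2h3c2 had no such signal and did not fall, while Hist2h4 and Hist4h4 had one and fell. The 2 kinds of end of these mRNAs cannot be separated in counts per gene, so the part of polyadenylated transcripts in the values was not tested.

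**Figure D5:**
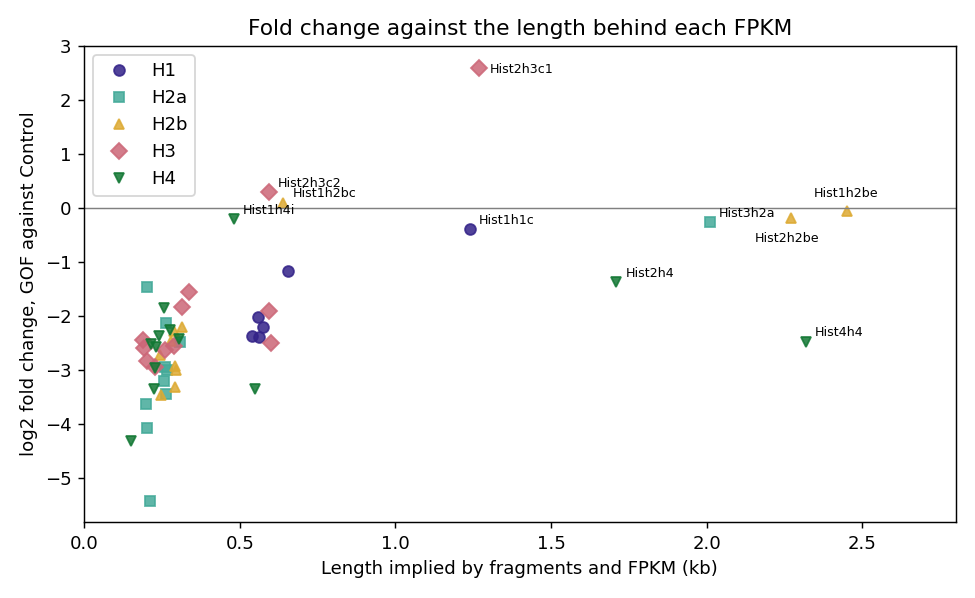
Fold change against length. The horizontal axis gives the length behind the FPKM in kb, the vertical axis the log2 fold change of GOF against control, and the symbols the class. Most members lie under 0.7 kb and below -1. Hist1h1c, Hist3h2a, Hist2h2be and Hist1h2be lie above 1 kb and between -0.39 and -0.06, with Hist2h3c1 also above 1 kb at 2.60, while Hist2h4 and Hist4h4 are as long and lie at -1.37 and -2.47.

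Sequence likeness limits the split between members. The coding sequence was over 95% identical to that of another member in 40 of the 53 tested genes. The 14 members that were not tested had at most 11 fragments in any library, and 4 of them had 0 fragments in all 6. They include Hist1h2ao and Hist1h2ap, Hist1h2bq and Hist1h2br, and Hist2h2aa1 and Hist2h2aa2, pairs that each share a coding sequence. Hist1h4m and Hist1h4n, both called lower, share theirs as well. How fragments that match both genes of a pair were counted is not given in the sources used here. Low values of such genes need not mean that they were silent.

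Histone variants that are also made outside S phase had smaller differences. Of 16 such genes 10 were tested, 1 was called lower and none higher, and the median log2 fold change was -0.47 beside -2.46 over the clustered genes. The shares called over all tested genes were 5.64% lower and 6.69% higher. Cenpa, the H3 variant of centromeres, went from 24.8, 10.8 and 11.4 FPKM to 5.40, 6.20 and 6.41 FPKM (-1.45, SE 0.36, adjusted p = 0.0274), and it lost the call when Control replicate 0 or any of the GOF libraries was left out. H2afz, which encodes H2A.Z, went from 119, 77.8 and 75.4 FPKM to 43.7, 52.4 and 53.0 FPKM (-0.87, adjusted p = 0.0450), under the fold threshold. H2afv and H2afy2 were at -0.81 (adjusted p = 0.0167) and -0.84 (adjusted p = 0.015), and H3f3a, a source of H3.3, at -0.51 (adjusted p = 0.0243). H1f0, the linker histone of resting cells, had 86.5, 77.6 and 83.4 FPKM and then 59.1, 76.8 and 50.0 FPKM (-0.43, adjusted p = 0.0971). At an unadjusted p under 0.05 in edgeR, 6 of the 10 tested variants were lower and 0 higher. The share of all genes past that threshold was not computed. No variant was called higher by DESeq2 or limma.

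Genes that transcribe the clusters and cut the histone 3′ ends were not called. None of 20 passed both thresholds by edgeR, DESeq2 or limma, and 2 were lower and 0 higher at an unadjusted p under 0.05. Over all tested genes edgeR called 5.64% lower and 6.69% higher, so a list of this size would hold few calls at those shares. The share of all genes past the unadjusted threshold was not computed. Slbp lay at 27.2, 22.3 and 22.5 FPKM in control and at 22.8, 27.2 and 23.8 FPKM in GOF (0.06, SE 0.15, adjusted p = 0.828). Casp8ap2 (FLASH), a part of the 3′ processing machinery, was at -0.33 (SE 0.11, adjusted p = 0.0815), and Ccne2, a cyclin of the entry into S phase, at -0.72 (SE 0.25, adjusted p = 0.0822). Eri1, the exonuclease that trims histone 3′ ends, lay between 6.79 and 7.57 FPKM in control and 5.66 and 6.33 FPKM in GOF (-0.22, adjusted p = 0.253). Srrt, which binds capped RNA, was at 0.25 (adjusted p = 0.199), and E2f2, a transcription factor of the cell cycle, at -0.49 (adjusted p = 0.209). The list summed to 210.4 to 219.6 FPKM in control and 213 to 227 FPKM in GOF.

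Histone chaperones, which carry histones to DNA, likewise had no member past both thresholds among 21 tested, by edgeR, DESeq2 or limma, with 6 lower and 1 higher at an unadjusted p under 0.05. The shares past both thresholds by edgeR over all tested genes were again 5.64% lower and 6.69% higher. They are not a background for the unadjusted counts, for which the share of all genes was not computed. Hjurp, which deposits Cenpa, was at -0.74 (SE 0.11, adjusted p = 0.00453), and Nap1l1, a carrier of H2A and H2B, at 0.48 (SE 0.13, adjusted p = 0.0379). Mcm2, a helicase subunit that also binds histones, was at -0.52 (adjusted p = 0.0588), and Asf1b, an H3 and H4 chaperone, at -0.64 (adjusted p = 0.0914).

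Of 24 S phase genes, 5 were called lower and none higher, where 5.64% and 6.69% of all tested genes were. Their median log2 fold change was -0.53. By adjusted p alone 8 passed, and at an unadjusted p under 0.05 in edgeR 15 were lower and 0 higher. The shares of all genes past these 2 looser thresholds were not computed. Called were Cdc6, which loads the replicative helicase, from 2.25, 1.46 and 1.28 FPKM to 0.442, 0.746 and 0.434 FPKM (-1.66, SE 0.30, adjusted p = 0.00824), and Tk1, thymidine kinase, from 17.8, 10.1 and 10.7 FPKM to 4.66, 4.10 and 4.87 FPKM (-1.55, SE 0.28, adjusted p = 0.00784). Prim1, the primase subunit, was at -1.21 (SE 0.25, adjusted p = 0.0139), and the remaining calls were Mcm5 and Ccna2. Pola1, of DNA polymerase alpha, was at -0.86 (SE 0.16, adjusted p = 0.00991), under the fold threshold. Pcna, the sliding clamp of DNA polymerase, went from 53.1, 37.7 and 36.0 FPKM to 27.0, 29.4 and 29.8 FPKM (-0.56, SE 0.18, adjusted p = 0.0689). Summed over the list, FPKM was 310, 211 and 216 in control and 169, 175 and 178 in GOF, again highest in Control replicate 0. The count was 2 when Control replicate 0 or GOF replicate 0 was left out and 3 when GOF replicate 1 was, and limma on log2(FPKM + 1) called 1. The part of a change in S phase in the histone values was not tested.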

How the data were processed

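RNA was sequenced by the authors as stranded TruSeq libraries, from 200 to 400 ng of RNA, and mapped to mm10 with TopHat. The authors' Cuffdiff run gave the estimated counts (fragments per gene and library before scaling) and the FPKM values, which were deposited in an all-gene table. Versions and the use of strand in counting are not given in the sources used here. A second table, of lncRNAs, was not used, and 2 columns of per-library values were left out. Gene identifiers were matched to GENCODE M21 (97.9%), and 32 genes with a failed estimate were left out, none of them a member.

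Estimated counts, of which 4.95% were not whole, were rounded and tested in R 4.3.3 with edgeR 4.0.16 (TMM, filterByExpr, quasi-likelihood test, Benjamini-Hochberg over all genes tested). Adjusted p-values come from edgeR unless another tool is named. The standard errors (SE) were derived from that test, as the size of the log2 fold change divided by the square root of its F statistic. DESeq2 1.42.0 and limma 3.58.1, on log2(FPKM + 1) and log2(FPKM + 0.1), were alternatives, along with other scalings and filters, replicate blocks and each library left out. With 3 libraries against 3, an exact permutation test of a single value cannot give a two-sided p below 0.1. Nothing says the GOF and control numbers pair. Titles put 2 animals in both groups, and the deviations of these cultures correlated at 0.408 and 0.46. p-values measure the spread between these cultures. The edgeR script was tested on simulated counts with the same dispersion for all genes and no difference between animals. That test checks the code and does not show how well the calls hold in these libraries.

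Members, gene lists and tests were chosen with earlier results of these data known. Named members are every H1 gene, the 3 most abundant and the 2 with the smallest adjusted p of each other class, those not called, and up to 4 of each list with the smallest adjusted p. Hist1h2af, Hist2h3b and Hist4h4, and further list genes given by value, were added after their values were seen. Promoters and coordinates are from RefSeq on GRCm38.p6 and from GENCODE M21, on the same assembly. Pandas 2.3.3, pyfaidx 0.9.0.4, Biopython 1.88 and matplotlib 3.10.9 were used with Python 3.11.15, and tables were read in R with data.table (version 1.17.8).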

Additional observations from a re-analysis of the deposited data

How the results depend on the processing

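The count of members called lower, 42 of 53, ranged from 42 to 43 with DESeq2, library totals, upper-quartile scaling, no filter, a minimum FPKM of 1, and limma at either pseudocount. With a replicate block by animal it was 43, and with a replicate block by label number 30, although same-numbered cultures are not from the same animal and their deviations correlated at -0.41, 0.0539 and -0.441. Leaving out each library in turn gave 13 (without GOF replicate 0) to 42. The count called higher was 0, except 1 with the replicate block by animal and 1 with a correlation between cultures of an animal (limma voom, chosen after seeing the data, with 44 called lower), and 0 to 1 when each library was left out. The median log2 fold change ranged from -2.78 to -1.81 over the libraries left out. Class medians ranged from -2.32 to -1.59 for H1, -3.60 to -2.52 for H2A, -2.81 to -1.81 for H2B, -2.79 to -1.64 for H3 and -2.89 to -1.84 for H4. On log2(FPKM + 1) the medians were -1.98 for H2A and -1.66 for H3, since a pseudocount of 1 shrinks low genes. Of the alternatives for single named members, 430 gave the same call, 21 lost it, 12 gained it and 0 reversed. Restricting the summed fragments to the tested members moved no ratio of control over GOF in fragments by more than 0.01. Genes with few fragments, such as Hist1h2af and Hist2h3c1, had the widest standard errors, so their size is the least certain.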
